A study of Mus musculus with 6 samples.

Results

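The genes described here are 37 genes of DNA damage signalling and repair, given as a list of names, with no measured value in the rule: every probe set was taken whose single gene symbol in the platform annotation is one of them. Of the 37, 36 had a probe set of their own on the array, of 18193 genes in all, and Xrcc2 had none; these 36 genes had 91 probe sets. The cells were primary dermal fibroblasts, skin cells that produce matrix, explanted separately for each biological replicate from B6 mice aged 0 to 2 days, of mixed sex, and used at passage 4. In the treated group, 3 cultures received 5-aza-2'-deoxycytidine at 5 µM for 96 hours, renewed every 24 hours, and then 24 hours of normal medium. In the control group, 3 cultures of the same kind were left untreated, and each culture was measured on 1 Affymetrix array.

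5-aza-2'-deoxycytidine (decitabine) is built into DNA during replication and traps DNA methyltransferases as covalent adducts, which are themselves lesions that cells must remove. Lesions are sensed by the kinases ATM and ATR, which signal through CHEK2 and CHEK1. The Fanconi anaemia pathway marks stalled forks at crosslinks with ubiquitin, homologous recombination copies broken ends from a sister chromatid, end joining ligates them directly, and base excision, mismatch and nucleotide excision repair each replace damaged or wrong bases. Many of these genes are known to be transcribed mainly in S and G2 phase of dividing cells.

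The arrays of each group resembled each other. Log2 signals correlated at 0.972 to 0.974 within groups and at 0.863 to 0.883 across groups. Fibroblast markers lay above the array median on all 6 arrays for 9 of 9 genes, their summed signal was 24260 to 29370 units in treated cultures and 53230 to 61370 in controls, and 8 of the 9 fell. Among markers of other cells, the summed signal of 6 keratinocyte genes was 385.2 to 596.7 in treated cultures and 200 to 303.8 in controls. Krt10 lay above the median on all 6 arrays, and Krt14, Krt1 and Trp63 lay below it. Of 3 tested keratinocyte genes, 1 was called higher. The summed signal of 5 skeletal muscle genes was 4515 to 5270 in treated cultures and 657.8 to 796.2 in controls. Of these, Des and Acta1 rose, and Myog and Myh3 lay below the median throughout. The 5 leukocyte genes summed to 565.9 to 785.9 in treated cultures and 452.5 to 589.9 in controls, with overlap. Csf1r and Adgre1 lay above the median on all 6 arrays, and Ptprc and Cd3e lay below it. The 3' to 5' signal ratio of Actb, a measure of RNA integrity, was 1.158 ± 0.0191 in treated cultures and 1.264 ± 0.0101 in controls (SD, n = 3 each), without overlap. The same ratio of Gapdh was 0.764 ± 0.0242 in treated cultures and 0.739 ± 0.0155 in controls, with overlap. The part of these differences in the results below was not tested.

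Most of the repair genes were not called, and those that were went both ways. Values are MAS5 signals after each array was scaled to 1 trimmed mean, and log2 changes are treated minus control on the scale log2(signal + 9.66), where 9.66 is a pseudocount. A probe set was tested if it exceeded its array's median on at least 3 of the 6 arrays, which left 34 of the 37 genes, and a gene is given by its brightest tested probe set. By limma, with p-values adjusted over all 23388 tested probe sets and called under 0.05, 12 of the 34 genes (35.3%) differed between the groups, against 41.1% of all 12194 tested genes, a share near the background. The ubiquitin ligase Fancl, the deubiquitinase Usp1, the helicase Wrn, the kinase Chek1, the damage reader Trp53bp1, the end-joining subunit Xrcc5, Parp2 and Nbn fell, and Fancc, the endonuclease subunit Ercc1, the kinase Atr and the polymerase Polb rose. Those are 8 lower, where the background is 21.6%, and 4 higher, where it is 19.5%. In 15 of the 34 genes every treated array lay on the same side of every control, against 52.5% of all tested genes, and 11 of the 34 (32.4%) lay lower in treated cultures, against 27.4% of all tested genes, again a share near the background. Only Fancl was called with at least a 2-fold change, whereas 11.4% of all genes were. The median log2 change of the 34 genes was -0.13, and the median size without regard to sign was 0.29, beside -0.003 and 0.33 for all tested genes. Without scaling, 1 member was called higher and 4 lower. In that setting 1088 of all 12194 tested genes were called higher and 1646 lower. RNA came from whole cultures, so that fewer cells expressing a gene and less RNA per cell cannot be told apart.

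**Figure D1:**
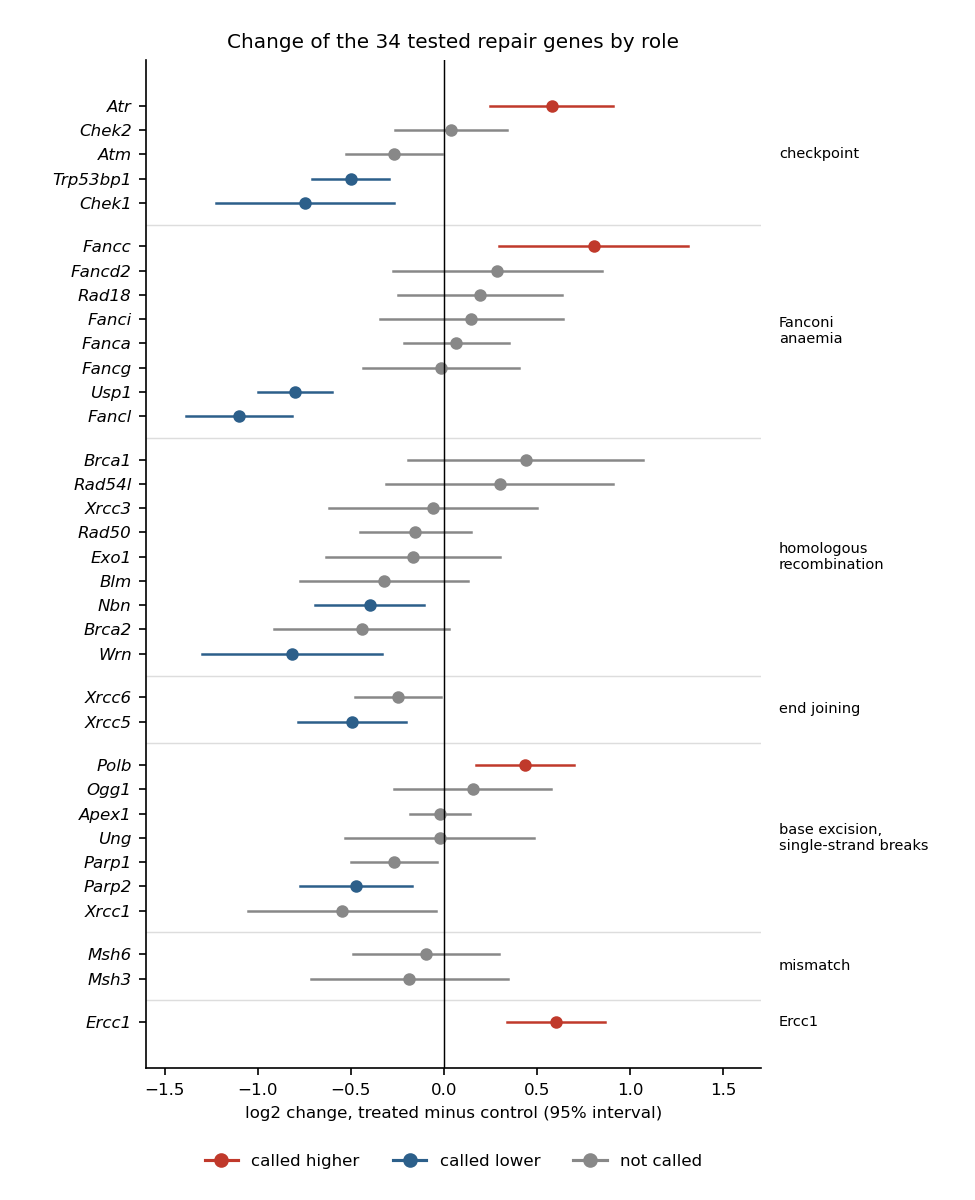
Log2 change, treated minus control, of the 34 tested repair genes, grouped by role, with the 95% interval of the limma fit as a bar (3 arrays a group). The points lie between -1.10 for Fancl and 0.80 for Fancc, with 8 genes called lower, 4 called higher and 22 not called.

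Promoters of some called genes are shown because loss of methylation at CpG sites is the known action of the drug. Methylation itself was not measured here. RefSeq promoter windows of GRCm38.p6, 250 bases before to 50 after an annotated start, were matched for 29 of the 37 genes. Wrn and Usp1 fell more than Chek1 but had no matched window. The sequences below are the 250 bases before the start, 5′ to 3′ on the gene's strand, with CpG sites in capitals. They are given for the 2 called genes with a window that rose most and the 2 that fell most.
Fancc: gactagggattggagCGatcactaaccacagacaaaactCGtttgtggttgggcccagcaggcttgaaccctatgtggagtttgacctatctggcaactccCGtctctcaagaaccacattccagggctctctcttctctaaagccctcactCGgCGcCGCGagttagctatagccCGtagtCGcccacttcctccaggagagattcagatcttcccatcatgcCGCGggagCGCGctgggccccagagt
Ercc1: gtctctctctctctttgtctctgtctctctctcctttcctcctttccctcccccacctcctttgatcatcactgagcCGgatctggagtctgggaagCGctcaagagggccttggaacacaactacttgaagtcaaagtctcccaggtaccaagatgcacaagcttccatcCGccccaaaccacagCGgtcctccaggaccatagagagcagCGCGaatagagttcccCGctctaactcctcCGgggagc
Fancl: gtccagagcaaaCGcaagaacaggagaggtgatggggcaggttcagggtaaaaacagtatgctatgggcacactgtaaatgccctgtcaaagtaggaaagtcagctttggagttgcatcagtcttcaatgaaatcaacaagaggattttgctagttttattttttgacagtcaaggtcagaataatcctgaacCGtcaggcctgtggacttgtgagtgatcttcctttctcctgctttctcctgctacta
Chek1: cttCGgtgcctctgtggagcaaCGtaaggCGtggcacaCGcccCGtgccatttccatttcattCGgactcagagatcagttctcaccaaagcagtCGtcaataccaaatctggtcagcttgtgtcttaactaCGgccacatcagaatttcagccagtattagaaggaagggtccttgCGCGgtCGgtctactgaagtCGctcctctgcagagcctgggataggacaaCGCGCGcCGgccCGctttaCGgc
Fancc (chr13:63431746-63431995, minus strand) has 13 CpG sites in this stretch and Ercc1 (chr7:19344821-19345070, plus strand) has 8. Fancl (chr11:26386834-26387083, plus strand) has 2 and Chek1 (chr9:36726659-36726908, minus strand) has 18. Counted over the full 300 bases of the first window listed, the 29 genes had a median of 22 CpG sites, with a range from 3 in Fancl to 37 in Msh6, and the 9848 tested genes with a window had a median of 20. The count in Fancl lay at percentile 6.1 of those genes, that in Ercc1 at percentile 27.8, that in Chek1 at 55.5 and that in Fancc at 58.7. The called genes with a window, 3 higher and 5 lower, had medians of 22 and 20 CpG sites. Windows were also searched on both strands for TTTCGCGC and TTTGGCGC, letters resembling an E2F site, and for TTTGAA and TTCGAA, letters resembling the CHR element of late cell cycle genes. The first pair occurred in 2 of the 29 genes, Rad51c and Msh3 (6.9%, beside 1.75% of tested genes). The second pair occurred in Atr, Bard1 and Apex1 (10.3%, beside 16.4% of tested genes). Rad51c and Bard1 were themselves too dim to be tested, so the shares of the 29 genes and of tested genes cover unlike sets. A match is a description of letters only.

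Of 5 tested checkpoint genes, Chek1 and Trp53bp1 fell, Atr rose, and Atm and Chek2 were not called. That is 60% of only 5 genes called in either direction, beside 41.1% of all tested genes (21.6% lower and 19.5% higher). Atr, the kinase that senses single-stranded DNA at stalled forks, had signals of 233.2, 198.9 and 199.2 on treated arrays 1 to 3, against 155.9, 143.5 and 115.9 on control arrays 1 to 3. Every treated value lay above every control, a log2 change of 0.58 ± 0.15 (SE; limma adjusted p = 0.0118). A dimmer Atr probe set had 83.3, 89.4 and 94.2 in treated cultures and 78.2, 62.8 and 59.8 in controls, also without overlap, but was not called (0.37; adjusted p = 0.160). On unscaled signals the call of Atr was lost (0.50; adjusted p = 0.200; range 0.00712 to 0.200 over 15 alternatives), and with all its probe sets averaged Atr was too dim to be tested. Chek1, the kinase that ATR activates, had 87.0, 119.4 and 93.4 in treated cultures, against 143.7, 240.1 and 149.1 in controls. The groups did not overlap, though control 2 stood well above the other controls, and the change was -0.75 ± 0.21 (adjusted p = 0.0204). By its name, that probe set holds probes that match several transcripts; the other tested one, without such probes, missed the threshold (-0.33; adjusted p = 0.364). Chek1 also lost its call without treated replicate 1 (-0.66; adjusted p = 0.0662), treated replicate 3 (-0.71; adjusted p = 0.0561) or control replicate 2 (-0.52; adjusted p = 0.0630), within a range of 0.00527 to 0.366 over its 15 alternatives.

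Trp53bp1, which binds chromatin at breaks and steers them to end joining, had 474.6, 492.7 and 535.9 in treated cultures, against 682.9, 691.3 and 764.8 in controls. Treated values were lower throughout, by -0.50 ± 0.092 (SE; adjusted p = 0.00208). A dimmer probe set of Trp53bp1 also fell (-0.62; adjusted p = 0.00389), and the last tested one changed by -0.44 without passing (adjusted p = 0.0594). Its call was lost only on unscaled signals among the 16 alternatives (-0.58; adjusted p = 0.0793; range 0.00163 to 0.0793). Atm, the kinase activated at DNA breaks, had 189.7, 227.8 and 210.9 in treated cultures, against 248.6, 260.6 and 252.5 in controls. These groups did not overlap either, but the change of -0.27 (95% interval -0.53 to -0.01) had an adjusted p of 0.0912. For Chek2, the kinase downstream of ATM, the interval ran from -0.26 to 0.34.

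In the Fanconi anaemia pathway Fancl and Usp1 fell, Fancc rose, and the other 5 tested members were not called. The called share was 37.5% of 8 genes, beside 41.1% of all tested genes. Fancl, the ubiquitin ligase subunit of the core complex, had 166.7, 129.5 and 162.0 in treated cultures, against 345.5, 347.6 and 318.2 in controls. Every control exceeded every treated value by a wide gap, with a mean 2.21-fold that of treated cultures and a log2 change of -1.10 ± 0.13 (SE; adjusted p = 0.000133). This change lay at percentile 5.15 of all tested genes, counted from the lowest. Usp1, which strips ubiquitin from FANCD2, FANCI and PCNA, had 552.9, 580.1 and 521.0 in treated cultures, against 1026, 973.0 and 903.5 in controls. The change was -0.80 ± 0.088 (adjusted p = 9.54e-05), and the other tested Usp1 probe sets fell by 0.69 and 0.61 on the log2 scale, so that all 3 were called lower. Usp1 was the only one of the 12 called genes whose call held under all 16 alternatives tried. Fancl held under 15 of 16 and was too dim to be tested when all its probe sets were averaged.

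The substrates of the ligase, Fancd2 and Fanci, varied more among treated cultures. Fancd2 had 84.2, 188.8 and 132.9 in treated cultures, against 96.1, 114.4 and 101.8 in controls, and the treated range enclosed the controls. Its 95% interval, -0.28 to 0.85, leaves room for changes in either direction, as does that of Fanci (-0.34 to 0.64). Fancc, a core complex subunit, had 173.5, 171.9 and 215.3 in treated cultures, against 105.7, 142.7 and 70.3 in controls. The groups did not overlap (0.80 ± 0.23, SE; adjusted p = 0.0192), but the second tested Fancc probe set was not called (-0.11; 95% interval -0.53 to 0.30). Without treated replicate 3 the call of Fancc was lost (0.70; adjusted p = 0.0687; range 0.00528 to 0.215 over 16 alternatives). The core subunits Fanca (0.07; -0.22 to 0.35) and Fancg (-0.02; -0.44 to 0.40) were not called. Nor was Rad18, the ligase that ubiquitinates PCNA at stalled forks (0.19; -0.25 to 0.63), although on both of its dimmer tested probe sets the treated arrays lay above the controls (0.38 and 0.43).

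**Figure D2:**
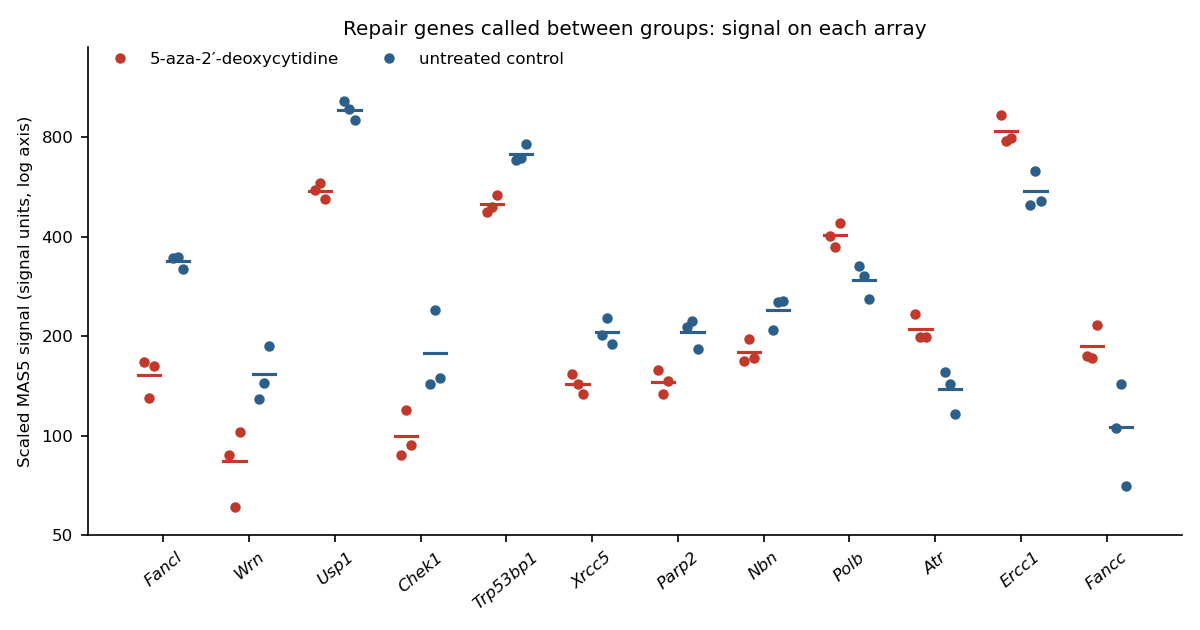
Scaled MAS5 signal on each array, on a log axis, for the 12 called repair genes, ordered from the largest fall to the largest rise; points are arrays, lines are means of 3 arrays, and treated cultures stand left of controls. In each gene the treated points lie on one side of the controls, with the widest gaps in Fancl and Usp1.

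Of 9 tested homologous recombination genes, Wrn and Nbn fell and 7 were not called, with a median log2 change of -0.17. The called share was 22.2%, all of it lower. Of all tested genes 41.1% were called and 21.6% were called lower. Wrn, a helicase of the RecQ family, had 87.3, 60.7 and 102.5 in treated cultures, against 129.3, 143.9 and 186.6 in controls, without overlap (-0.82 ± 0.21, SE; adjusted p = 0.0138). Other Wrn probe sets changed by 0.00 and -0.39 and were not called, and without control replicate 3 the call was lost (-0.68; adjusted p = 0.0597; range 0.00769 to 0.115 over 16 alternatives). Nbn, the subunit of the break-sensing complex that recruits ATM, had 167.7, 196.2 and 172.1 in treated cultures, against 209.0, 252.9 and 255.8 in controls. Its change of -0.40 ± 0.13 (adjusted p = 0.0352) was the call least often kept: 7 of 16 alternatives lost it, among them those without treated replicate 1 or 3 or control replicate 2 or 3 (-0.38 to -0.35; adjusted p = 0.0895 to 0.102; range 0.0221 to 0.228). Rad50, its partner in that complex, was not called (-0.16; 95% interval -0.45 to 0.14).

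Brca1, which promotes resection of broken ends, had 95.7, 83.4 and 104.8 in treated cultures, against 50.1, 111.0 and 53.03 in controls. Control 2 lay above all treated arrays and the other controls below them; the change was 0.44 (95% interval -0.19 to 1.07; adjusted p = 0.256), and without control replicate 2 it was 0.76 (adjusted p = 0.0265; range 0.0265 to 0.554 over 15 alternatives). Other Brca1 probe sets pointed elsewhere. A second tested one changed by -0.13, and an untested one had 19.9, 9.30 and 9.50 in treated cultures, against 34.1, 53.9 and 45.0 in controls. Another untested one, dimmer still, had 2.46, 1.30 and 3.32 in treated cultures, against 27.5, 12.5 and 10.4 in controls. Brca2, which loads the strand-exchange recombinase, was not called (-0.44; -0.91 to 0.03). The helicase Blm (-0.32), the nuclease Exo1 (-0.17), the recombinase paralogue Xrcc3 (-0.06) and the translocase Rad54l (0.30) also missed the threshold, with intervals that include 0.

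Rad51c and Bard1 were below the array median on every array and were not tested. Rad51c, another recombinase paralogue, had 12.2, 11.8 and 9.87 in treated cultures, against 44.9, 32.9 and 32.3 in controls. Its second probe set had 6.73, 10.1 and 10.2 in treated cultures, against 25.4, 29.2 and 19.3 in controls. On both probe sets the treated arrays lay below the controls. Treated signals lay near the pseudocount of 9.66, and control signals, at 19.3 to 44.9, lay above it but below the array median. With no filter the change was -1.14 (limma adjusted p = 0.0210 in that setting). Bard1, the partner of BRCA1, had 6.09, 22.4 and 5.07 in treated cultures and 4.83, 7.98 and 4.07 in controls, and overlapped.

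Of the Ku subunits of end joining, Xrcc5 was called lower and Xrcc6 was not called. On both, every treated array lay below every control, as for 27.4% of all tested genes. Xrcc5 (Ku80) had 153.1, 142.8 and 133.4 in treated cultures, against 201.5, 227.1 and 189.3 in controls. It fell by 0.50 ± 0.13 on the log2 scale (SE; adjusted p = 0.0135), and without control replicate 2 the adjusted p was 0.0501 (-0.43; range 0.00689 to 0.135 over 16 alternatives). Xrcc6 (Ku70) had 266.0, 245.2 and 252.9 in treated cultures, against 307.2, 320.6 and 285.0 in controls, without overlap, but was not called (-0.25; 95% interval -0.48 to -0.01; adjusted p = 0.0890).

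In base excision and single-strand break repair Polb rose and Parp2 fell, and the other 5 tested members were not called. That is 28.6% of 7 genes called, beside 41.1% of all tested genes. The glycosylases Ung (-0.02; 95% interval -0.53 to 0.48) and Ogg1 (0.15; -0.27 to 0.57) were dim. Apex1, the endonuclease that cuts at abasic sites, was the brightest of the 34 genes and the most tightly measured, with 1273, 1331 and 1274 in treated cultures, against 1291, 1320 and 1323 in controls (-0.02; -0.18 to 0.14). By its name that probe set, like 1 of the other 2, holds probes shared between transcripts. On both other tested Apex1 probe sets every treated array lay above every control, without a call (0.16 on each; adjusted p = 0.127 and 0.171). Polb, the gap-filling polymerase, had 401.4, 371.8 and 438.9 in treated cultures, against 325.8, 304.4 and 259.7 in controls. It rose by 0.44 ± 0.12 (SE; adjusted p = 0.0155), and its other tested probe sets changed by 0.32 (adjusted p = 0.0910) and 0.07. Without treated replicate 3 the call of Polb was lost (0.38; adjusted p = 0.0575; range 0.00731 to 0.554 over 16 alternatives).

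Parp2, a sensor of strand breaks, had 157.3, 133.1 and 145.8 in treated cultures, against 212.9, 221.7 and 182.6 in controls (-0.47 ± 0.13, SE; adjusted p = 0.0194). Its groups did not overlap, yet its call was lost without treated replicate 2, control replicate 1 or control replicate 2 (-0.45 to -0.41; adjusted p = 0.0595 to 0.0653; range 0.0108 to 0.155 over 16 alternatives). Parp1, the main poly(ADP-ribose) polymerase, had 648.1, 603.3 and 512.5 in treated cultures, against 680.7, 729.5 and 712.5 in controls at its brightest probe set. There it narrowly missed the threshold (-0.27; 95% interval -0.50 to -0.04; adjusted p = 0.0646), which it passed without treated replicate 1 (-0.34; adjusted p = 0.0463; range 0.0196 to 0.363 over 16 alternatives). Both dimmer tested Parp1 probe sets fell, by 0.43 and 0.46 on the log2 scale (adjusted p = 0.0108 and 0.0103). Xrcc1, the scaffold that PARP recruits to nicks, had 76.4, 67.5 and 88.2 in treated cultures, against 137.6, 82.6 and 140.7 in controls. Control 2 lay within the treated range, the change was -0.55 (adjusted p = 0.0817), and it passed without control replicate 2 (-0.78; adjusted p = 0.0141; range 0.0141 to 0.244 over 16 alternatives).

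**Figure D3:**
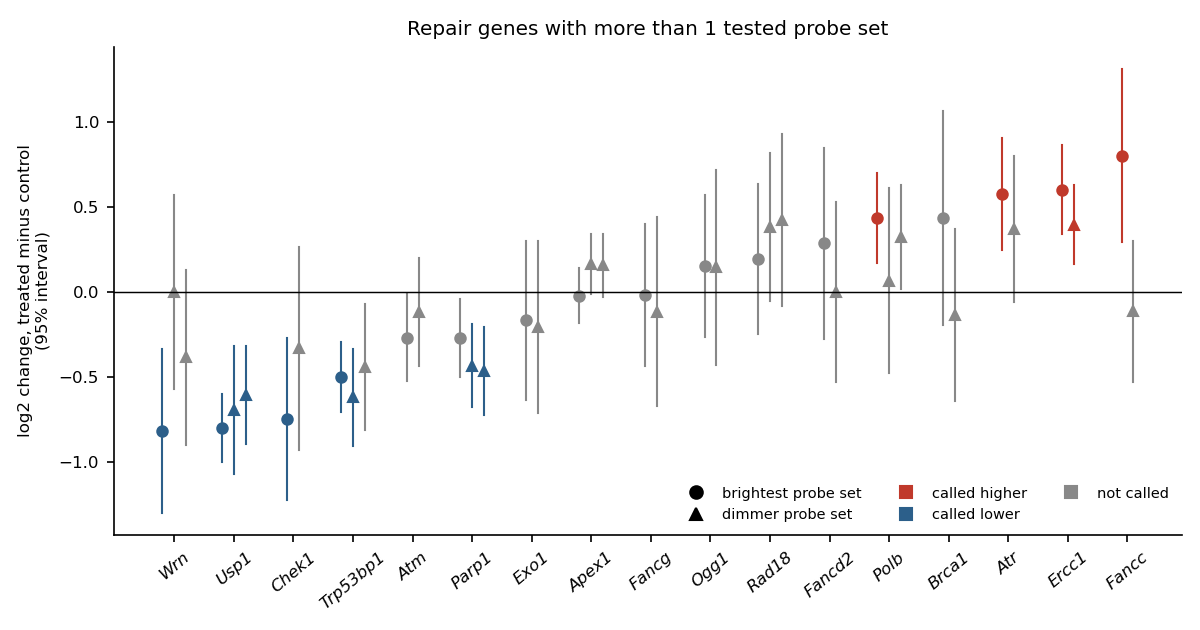
Log2 change, treated minus control, with 95% interval for each tested probe set of the 17 repair genes that had more than 1; circles are the brightest probe set of a gene and triangles the dimmer ones. All 3 probe sets of Usp1 and both of Ercc1 were called in 1 direction, whereas those of Wrn, Fancc and Brca1 lie on or across 0.

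The mismatch recognition subunits Msh3 and Msh6 were not called. Msh6 had 139.2, 140.9 and 134.2 in treated cultures, against 192.0, 121.1 and 140.0 in controls, a change of -0.10 (95% interval -0.49 to 0.29). That of Msh3 was -0.19 (-0.72 to 0.34). Ercc1, a subunit of the endonuclease used in nucleotide excision and crosslink repair, had 935.1, 776.6 and 796.4 in treated cultures, against 500.0, 632.9 and 511.8 in controls. It rose by 0.60 ± 0.12 (SE; adjusted p = 0.00282). That probe set carries probes shared between transcripts, and an unshared Ercc1 probe set also rose, with 707.6, 665.2 and 690.6 in treated cultures, against 570.4, 542.2 and 453.9 in controls (0.40; adjusted p = 0.0129). The call of Ercc1 was lost on unscaled signals (0.53; adjusted p = 0.109) and when all 4 probe sets were averaged (0.11; adjusted p = 0.539), of which 2 were too dim to be tested (range 0.00161 to 0.539 over 16 alternatives).

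Other genes of these pathways, from 7 lists with 98 tested genes, went both ways: 10 rose and 18 fell, or 28.6% called beside 41.1% of all tested genes, with a median log2 change of -0.07. Among other checkpoint genes 3 of 16 fell, the adaptor Mdc1 (-0.59), the ATR activator Etaa1 (-0.77) and the ligase Rnf8 (-0.41), and the clamp loader Rad17 rose (0.31). Among other Fanconi and recombination genes 5 of 26 fell, with the core subunit Fancf (-1.30), the recombinase paralogue Rad51d (-0.89) and Rmi1 (-0.57) having the smallest p, and 2 rose, the single-strand binding protein Rpa1 (0.77) and Faap24 (0.85). Of 9 end joining genes, Rif1 (-0.79) and the polymerase Poll (-1.40) fell, and of 18 base excision genes, Mpg fell (-0.49) and Parp3 rose (0.42). Mlh3 fell (-0.54) among 3 mismatch repair genes. Called shares of these lists ran from 11.1% in base excision repair to 33.3% in mismatch repair, all under the 41.1% of all tested genes.

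Nucleotide excision repair had 2 of 16 genes higher, Gtf2h1 (0.37) and Ercc3 (0.45), and 3 lower, Uvssa (-0.87), Cetn2 (-0.46) and Gtf2h4 (-0.44). Its called share was 31.2%, beside 41.1% of all tested genes. The translesion list had the largest called share of the 7, 7 of 10, with 4 higher and 3 lower, beside the background of 41.1%. The polymerase zeta subunit Rev3l had 217.7 ± 1.95 in treated cultures and 493.8 ± 16.8 in controls (SD, n = 3 each; log2 change -1.15; adjusted p = 1.46e-05). Rev1 (-0.49) and the ligase Shprh (-0.46) fell too. Ube2n and Ube2v2, whose products together extend ubiquitin chains on PCNA, rose by 0.63 and 0.69, and Ube2a, the partner of RAD18, by 0.26.

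Genes of cell division and p53 targets were measured on the same arrays. Called shares were 88.2% of mitosis markers, 61.1% of S phase markers and 70.8% of p53 targets, beside 41.1% of all tested genes. Of all tested genes 19.5% were higher and 21.6% lower. Of 17 tested mitosis markers 15 fell (median log2 change -0.91), with summed signals of 2708 to 2805 in treated cultures and 4317 to 6425 in controls. Ccnb2 had 104.8 ± 5.91 in treated cultures and 391.3 ± 85.6 in controls, and Cenpa had 148.8 ± 12.2 in treated cultures and 395.8 ± 60.0 in controls (SD, n = 3 each). Of 18 S phase markers 3 rose and 8 fell (median -0.10), among them Rrm2 (1.12), Ccne2 (0.65), Mcm6 (-0.66) and Prim1 (-0.48). Of 24 p53 targets 14 rose and 3 fell (median 0.55), with Pmaip1 (3.02) and Mdm2 (2.08) having the smallest p among those higher, and Sesn1 (-1.28) and Sesn2 (-0.45) among those lower. The part of cell division in the levels of the repair genes was not tested.

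**Figure D4:**
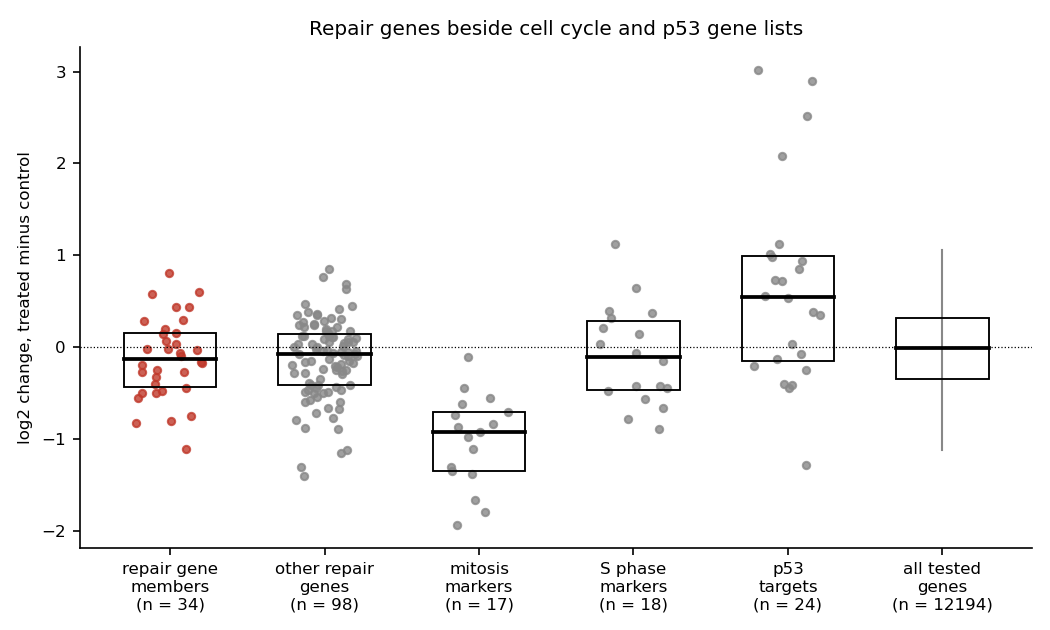
Log2 change, treated minus control, of the 34 tested repair genes, 98 other repair genes, 17 mitosis markers, 18 S phase markers and 24 p53 targets (points are genes, boxes the quartiles, thick lines the medians), and of all 12194 tested genes (box, with a line from the 5th to the 95th percentile). The repair genes spread on both sides of 0 with a median of -0.13, the mitosis markers have a median of -0.91 and the p53 targets of 0.55.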

How the data were processed

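RNA of 3 treated and 3 control cultures was measured on 1 Affymetrix array each. The deposited values are linear MAS5 signal intensities per probe set, per the submitters' processing notes; no version of MAS5 is stated there, and no detection calls were used. Each array was scaled to a common 2% trimmed mean of 193.2, since the deposited intensity levels differed (149.2 to 209.4 in treated cultures and 179.1 to 223.9 in controls). Signals were transformed to log2(signal + 9.66), which understates changes of dim probe sets. The 64 control probe sets were left out. Of 45037 probe sets, 23388 exceeded their array's median on at least 3 arrays and were fitted in limma 3.58.1 under R 4.3.3 (lmFit, then eBayes with its trend option), group as the sole term, two-sided, with Benjamini-Hochberg adjustment over all of them; 95% intervals come from this fit. The number of arrays limits the precision.

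Groups came from the sample titles. Genes were named from the platform annotation, through probe sets with a single symbol. All members are accounted for, with array values for those called or with probe sets that disagree, and values of other members were added after they were seen; of each other list, up to 3 called genes in each direction with the smallest p are named (2 for the mitosis, S phase and p53 lists). Members and lists were chosen with earlier results of these data known. Other scalings, pseudocounts, filters, probe set rules, a fit without trend, a replicate block and leaving out each array were tried.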

Additional observations from a re-analysis of the deposited data

How the results depend on the processing

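Of the 12 called repair genes, 11 lost their call in at least 1 of 16 alternatives, and all kept their direction. On unscaled signals 1 member was higher and 4 lower, and 3 other repair genes were higher and 9 lower. In that setting 1088 of all 12194 tested genes were higher and 1646 lower. With all probe sets of a gene averaged, dim ones included, 22 members were tested by limma, with 0 higher (also 0 at an unadjusted p under 0.05) and 7 lower (8 unadjusted), and 10 other repair genes were lower. Of all 9480 genes tested in that setting, 1995 were higher and 2109 lower. Without an intensity trend 6 other repair genes were higher, beside 2103 of all tested genes. Leaving out 1 array gave 2 to 5 members higher (2 without treated replicate 3) and 5 to 7 lower (5 without control replicate 2), and 6 to 9 other repair genes higher (6 without treated replicate 2). In those fits 1792 to 2157 of all genes were higher and 2033 to 2347 lower, of 11755 to 11834 tested. Leaving out probe sets with shared probes, an alternative chosen after seeing the data, cost the call of Chek1 and gave 4 higher and 7 lower.

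Deviations of same-numbered cultures correlated at 0.186, 0.172 and 0.072 over probe sets, and each culture correlated best with its own number, a hint from the data and not from the design. With the replicate block 4 members were higher and 9 lower, with Xrcc1 added (adjusted p = 0.0450), and 2510 of all genes were higher and 2752 lower. No detection calls separate dim signals from background.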
